A study of Homo sapiens with 9 samples.

Results

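The 2 compounds compared here are R4VPL3-1, a PROTAC-like molecule that joins a VHL-recruiting part through a linker to a part that binds the ubiquitin ligase RNF4, and VHL-r, the VHL-recruiting moiety on its own. The comparison uses 6 of the 9 RNA-seq libraries of the series, the 3 of cells treated with 10 µM R4VPL3-1 for 2 h and the 3 of cells treated with 10 µM VHL-r for 2 h. Dose and time are matched, and the compounds form 1 pair. All libraries come from A375R, a PLX4032-resistant derivative of the A375 human melanoma cell line. Per the methods these cells are kept in medium with PLX4032, a BRAF inhibitor, so that the 3 groups share this exposure. Per the methods they are 3 biological repeats per treatment, selected for poly(A) and sequenced strand-specifically. The other 3 libraries are the controls, which the labels call wild type without a dose and the methods give as DMSO-treated; their values are given beside those of the members named. Genes of the ferroptosis and NRF2 lists are left aside, and the text follows transcription factors, signalling feedback, noncoding RNAs and the genes with lower values in R4VPL3-1.

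PROTACs recruit a ubiquitin ligase to another protein, and a VHL recruiter occupies the substrate-binding site of the VHL ligase, whose usual substrates are the hydroxylated HIF alpha subunits. Growth factor and stress signals switch on immediate early genes within minutes, many of them AP-1, EGR and Kruppel-like transcription factors with short-lived mRNAs. They then switch on genes whose products dampen the same signal, such as the dual-specificity phosphatases, the Sprouty proteins and the inhibitors of NF-kB. In melanoma cells with an active BRAF kinase the ERK pathway keeps such feedback genes high, and a set of neural crest transcription factors including SOX10 maintains the identity of the cells.

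Of 15230 genes with a mean of at least 10 normalized counts over the 9 libraries, limma called 285 between R4VPL3-1 and VHL-r, or 1.87%. A gene is called when its p, adjusted after Benjamini and Hochberg over all 15230, is 0.05 or less. Higher values in R4VPL3-1 were called for 174 genes, 1.14% of those tested, and lower values for 111, 0.729%. Of these, 8 higher genes and 0 lower genes belong to the ferroptosis or NRF2 list, which leaves 166 higher and 111 lower genes. In the gene lists, those called higher included genes of stress-inducible AP-1 and ATF factors and NEAT1. They also included brakes of the integrated stress response and of growth signalling, and hosts of microRNAs and small nucleolar RNAs. Genes of ERK, TGF-beta, NF-kB and Notch feedback and of neural crest factors were among those called lower.

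The replicates were not equally far apart. Of the 174 genes called higher, R4VPL3-1 replicate 1 was the highest library of its group in 136 and replicate 3 the lowest in 135, and of the 111 called lower, replicate 1 was the lowest in 74. Without R4VPL3-1 replicate 1, 182 genes were called, 113 higher and 69 lower, and without VHL-r replicate 2, 68 were called lower. The recovered totals lay between 26435568 and 32085626 reads per library. Mitochondrially encoded genes took 2.14 to 2.59% of the reads, and no pair of replicates differed by as little as counting noise. Melanocyte lineage markers summed to 34417 to 37267 normalized counts in DMSO, 25787 to 30107 in VHL-r and 25106 to 27912 in R4VPL3-1. The sum was mostly SOX10 and CSPG4, so it does not show a fall of the markers as a set. SOX10 had means of 17547 in DMSO, 10200 in VHL-r and 8405 in R4VPL3-1. CSPG4 had means of 14415, 14447.5 and 15435, and MITF of 1722, 1047 and 1011. DCT, S100B and PMEL were called in none of the 3 contrasts. SOX10, MITF and DCT were read in every library, but MLANA was at 0 in all 9, TYR at most at 2.14 and PMEL at 20.9 to 36.8. Keratinocyte markers summed to 2003 to 2454 and fibroblast markers to 2168 to 4652 over the 9 libraries, leukocyte markers to at most 163 and endothelial markers to at most 38.5. In bulk RNA, fewer cells that express a gene and less of its RNA per cell cannot be told apart. Differences are on the log2(value + 1) scale, which understates the change of genes with low counts. For 3 against 3, the smallest p of an exact permutation test is 0.1, so p-values are those of the model fitted across genes. The 3 contrasts share libraries, so values against DMSO stand beside the comparison of the compounds and are no further evidence for it.

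AP-1 is a dimer of JUN and FOS family proteins that binds DNA in response to stress and growth signals. Among the 9 tested AP-1 genes, 3 were called higher in R4VPL3-1 and 0 lower. JUN (ENSG00000177606, chromosome 1, 58776845 to 58784048 on GRCh38) measured 1195, 1064 and 1229 normalized counts in VHL-r replicates 1 to 3 and 23741, 19158 and 12252 in R4VPL3-1 (log2 difference 3.93, standard error 0.14, limma adjusted p = 1.14e-13). All 3 R4VPL3-1 libraries lay far above the others, while the VHL-r libraries lay below the DMSO libraries at 2301, 1813 and 1853. The log2 difference from DMSO was thus -0.77 for VHL-r (limma adjusted p = 5.13e-04) and 3.16 for R4VPL3-1 (limma adjusted p = 9.51e-13). JUND, the JUN family member with a steadier basal level, measured 2492, 2414 and 2557 in VHL-r and 4712, 4396 and 3531 in R4VPL3-1 (log2 difference 0.75, standard error 0.088, limma adjusted p = 1.47e-05). FOS, the partner of JUN, measured 423, 473 and 573 in VHL-r against 1251, 1145 and 792 in R4VPL3-1 (log2 difference 1.10, standard error 0.15, limma adjusted p = 1.32e-04), with DMSO at 161, 122 and 191. Both compounds thus stood above DMSO for FOS, and R4VPL3-1 above VHL-r; the robust option of limma removed the call between the compounds (limma adjusted p = 0.0727). The other 6 members were not called, with log2 differences of -0.46 for FOSB, -0.17 for FOSL1, -0.13 for JUNB and 0.17 for FOSL2, and the median over the 9 was -0.10, against -0.0056 over all tested genes.

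Stress-inducible bZIP factors act downstream of the unfolded protein response and of eIF2 alpha phosphorylation, where ATF4 is translated when general translation slows and ATF3 and DDIT3 (CHOP) follow it. Of 23 such genes tested, 5 were called higher and 0 lower, with a median log2 difference of 0.092 over the list. ATF3, a repressor that is induced by many stresses, measured 819, 834 and 844 in VHL-r and 3891, 2855 and 2130.5 in R4VPL3-1 (log2 difference 1.79, standard error 0.16, limma adjusted p = 3.86e-07). Its VHL-r libraries lay among the DMSO libraries, at 1071, 657 and 655, and none of the R4VPL3-1 libraries overlapped either group. DDIT3, a pro-apoptotic partner of the C/EBP factors, measured 366, 382 and 403 in VHL-r and 1492, 1271 and 959 in R4VPL3-1 (log2 difference 1.67, standard error 0.11, limma adjusted p = 3.84e-09). ATF4 itself moved less, from 7375, 7428 and 7756 in VHL-r to 10208, 10081 and 9552 in R4VPL3-1 (log2 difference 0.40, standard error 0.042, limma adjusted p = 2.62e-06). XBP1, a factor of the unfolded protein response, was higher by 0.31 (limma adjusted p = 3.88e-04), and NFIL3, a transcriptional repressor of this family, by 0.41 (limma adjusted p = 0.0047). The call of NFIL3 was lost without R4VPL3-1 replicate 1 (limma adjusted p = 0.0626). CEBPB and CEBPG, at 0.31 and 0.24, were not called.

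The classical immediate early genes did not move as a group. Of the 10 tested EGR, NR4A and IER genes, 2 were called higher and 2 lower. EGR1, the ERK-dependent zinc-finger factor, had a log2 difference of -0.048 and was not called. EGR3, a close relative of EGR1, measured 809.6, 853 and 828 in VHL-r and 476, 568 and 536 in R4VPL3-1 (log2 difference -0.66, standard error 0.079, limma adjusted p = 1.87e-05), while its DMSO libraries, at 948, 780.2 and 842, overlapped those of VHL-r. NR4A2, an orphan nuclear receptor, showed the opposite order, with 335, 376 and 442 in VHL-r and 728, 595 and 482 in R4VPL3-1 (log2 difference 0.63, standard error 0.12, limma adjusted p = 0.00268). IER5, an immediate early gene that takes part in heat shock factor regulation, measured 1518, 1363 and 1441 in DMSO, 3189, 3347 and 3665 in VHL-r and 5237, 5303 and 4281 in R4VPL3-1 (log2 difference 0.53, standard error 0.07, limma adjusted p = 6.14e-05). The 3 groups were separate and in that order. IER3, a survival gene of the same class, ran the other way, with 4793, 3845 and 4039 in DMSO, 2755, 2912 and 2930.3 in VHL-r and 947, 1176 and 1066 in R4VPL3-1 (log2 difference -1.43, standard error 0.075, limma adjusted p = 5.06e-11).

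Kruppel-like factors are zinc-finger regulators that bind GC-rich promoters. Among 14 tested, KLF2 and KLF6 were called higher and KLF10 and KLF9 lower. KLF6, a stress-responsive member, measured 2128, 1996 and 1810.1 in DMSO, 843, 880.3 and 855 in VHL-r and 2040.2, 1815 and 1337 in R4VPL3-1 (log2 difference 0.99, standard error 0.10, limma adjusted p = 1.90e-06). The VHL-r libraries were the low ones here, at a log2 difference from DMSO of -1.20, whereas R4VPL3-1 differed from DMSO by -0.21 and was not called against it (limma adjusted p = 0.136). KLF2, a member best known from endothelial and T cells, was also lowest in VHL-r, with 1186, 952 and 824 in DMSO, 624, 619.8 and 686 in VHL-r and 1648, 1419 and 1009.6 in R4VPL3-1 (log2 difference 1.05, standard error 0.13, limma adjusted p = 2.95e-05), but limma's robust option removed the call (limma adjusted p = 0.0713). KLF10, induced by TGF-beta in many cells, measured 2651, 2627 and 2880.1 in VHL-r and 1523, 1839 and 1835 in R4VPL3-1 (log2 difference -0.65, standard error 0.072, limma adjusted p = 5.45e-06), and its DMSO libraries, at 2401, 2029.7 and 2077, lay between the compounds. KLF9, a glucocorticoid-responsive member, fell with each compound, from 3292, 3672 and 3604 in DMSO to 1698, 1774 and 1723 in VHL-r and 1227, 1370 and 1414 in R4VPL3-1 (log2 difference -0.38, standard error 0.058, limma adjusted p = 4.48e-04). In the MYC and MXD network, 1 of 11 tested genes was called, MXD1, which encodes a repressor that competes with MYC for its partner MAX. It measured 1229.9, 1236 and 1196 in VHL-r and 2083, 1696 and 1455 in R4VPL3-1 (log2 difference 0.50, standard error 0.087, limma adjusted p = 0.00159), while MYC had a log2 difference of -0.23 and was not called.

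Neural crest and melanoma state factors set the identity of melanocytic cells. Of 30 tested genes of this list, 9 were called lower in R4VPL3-1 and 0 higher, and the median log2 difference was -0.21. FOXC2, a forkhead factor of the mesenchyme, measured 766, 661 and 686 in DMSO, 348, 332 and 349 in VHL-r and 191, 243 and 211 in R4VPL3-1 (log2 difference -0.68, standard error 0.094, limma adjusted p = 1.16e-04). DLX2, a homeobox factor of the cranial neural crest, measured 655, 766 and 837 in VHL-r and 429.5, 475 and 468 in R4VPL3-1 (log2 difference -0.71, standard error 0.097, limma adjusted p = 1.02e-04), and its DMSO libraries, at 636, 494 and 624, lay between the 2 groups. TFAP2C, an AP-2 factor, stepped down from 7571, 7015 and 6280.1 in DMSO to 3476, 3603 and 3087 in VHL-r and 2245, 2426 and 2273 in R4VPL3-1 (log2 difference -0.55, standard error 0.064, limma adjusted p = 1.25e-05). For FOXC2 and TFAP2C the VHL-r libraries already lay well below DMSO, by -1.03 and -1.04 on the log2 scale, and R4VPL3-1 lay lower still. POU3F2 (BRN2), a factor of invasive melanoma cells, differed by -0.44 (limma adjusted p = 3.44e-04). NR2F2, an orphan nuclear receptor, differed by -0.37 (limma adjusted p = 3.31e-04) and DLX1, the neighbour of DLX2, by -0.32 (limma adjusted p = 0.00344). SOX10, the lineage factor of melanocytes, measured 17699, 17007 and 17935 in DMSO, 9133, 10250.4 and 11216 in VHL-r and 7900.4, 8562 and 8752 in R4VPL3-1 (log2 difference -0.28, standard error 0.058, limma adjusted p = 0.00951). Its call was lost without VHL-r replicate 2, VHL-r replicate 3 or R4VPL3-1 replicate 1 (limma adjusted p at most 0.08). SOX4 and FOXC1, the remaining members called, lost it under 5 and 11 of 21 alternatives. MITF, the master regulator of pigment cells, and SOX9, PAX3 and ZEB1 had log2 differences of -0.064, -0.047, 0.082 and 0.072, and none of the 4 was called.

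ETS factors form a family, some of whose members are nuclear targets of ERK. Of 17 tested, ELK3 and ETS2 were called lower, by -0.20 and -0.25, and neither was called without VHL-r replicate 2, R4VPL3-1 replicate 1 or R4VPL3-1 replicate 2. ETV4 and ETV5, at -0.049 and -0.05, were not called. Numbered zinc-finger genes (ZNF and ZSCAN), most of them repressors of transposable elements and of other genes, gave 14 genes called higher and 2 lower of 435 tested, and a median of 0.090. ZNF627 had the largest difference, with means of 393 in VHL-r and 593 in R4VPL3-1 (log2 difference 0.60, standard error 0.096, limma adjusted p = 6.46e-04), and ZNF766 (0.46, limma adjusted p = 0.00172) and ZNF473 (0.45, limma adjusted p = 4.80e-04) were higher under every alternative tried. ZNF92 and ZNF668 were the lower genes, by -0.39 and -0.38. The count of higher genes depended on single libraries: it was 4 without R4VPL3-1 replicate 1, 9 without its replicate 2, 24 without its replicate 3, 7 without VHL-r replicate 2 and 5 without VHL-r replicate 3.

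The feedback genes of ERK and growth factor signalling divided, also within families. Dual-specificity phosphatases remove phosphate from MAP kinases: DUSP6 acts on cytoplasmic ERK, DUSP4 and DUSP2 on nuclear kinases and DUSP1 preferentially on the stress kinases p38 and JNK. Of 10 tested, DUSP1 and DUSP2 were called higher and DUSP6, DUSP4 and DUSP7 lower. DUSP1 measured 314, 339 and 366 in DMSO, 416, 478 and 521 in VHL-r and 1277, 1152 and 924 in R4VPL3-1 (log2 difference 1.24, standard error 0.10, limma adjusted p = 1.06e-07), the 3 groups being separate. DUSP6 measured 7056, 5983 and 6036 in DMSO, 4834, 4896 and 4618 in VHL-r and 1374, 1825 and 1961 in R4VPL3-1 (log2 difference -1.49, standard error 0.089, limma adjusted p = 5.66e-10), separate in the reverse order. DUSP4 lay at 4037, 4317 and 4113 in VHL-r and 2985, 3488 and 3355 in R4VPL3-1 (log2 difference -0.35, standard error 0.054, limma adjusted p = 4.42e-04). Most of its distance from DMSO was already present in VHL-r, at -0.84. DUSP2 (0.56, limma adjusted p = 0.00833) lost its call without VHL-r replicate 1 or 2 or without R4VPL3-1 replicate 1 or 2, and DUSP7 (-0.22, limma adjusted p = 0.0283) under 7 of 21 alternatives.

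Sprouty and SPRED proteins block RAS activation. SPRY2 and SPRY4 were the 2 genes called lower of 7 tested. SPRY2 (ENSG00000136158, chromosome 13, 80335976 to 80341126) measured 7272, 7324 and 7214 in DMSO, 4182, 4094 and 4218 in VHL-r and 2154, 2609.6 and 2600.4 in R4VPL3-1 (log2 difference -0.77, standard error 0.058, limma adjusted p = 2.04e-08). SPRY4 measured 1531, 1589 and 1636 in VHL-r and 979, 1091 and 1118 in R4VPL3-1 (log2 difference -0.58, standard error 0.059, limma adjusted p = 1.95e-06). In both genes the groups were separate and the VHL-r libraries lay between DMSO and R4VPL3-1. The log2 differences from DMSO were -0.80 and -0.64 for VHL-r and -1.57 and -1.22 for R4VPL3-1. SPRY1, at 0.43, and SPRED1 and SPRED2, at -0.14 and -0.055, were not called.

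The list of other receptor kinase feedback genes, which also holds regulators of G proteins, gave 6 lower and 2 higher of 21 tested. TRIB1, a pseudokinase scaffold for the COP1 ligase, measured 1161, 1099 and 1151 in VHL-r and 412, 464 and 529.9 in R4VPL3-1 (log2 difference -1.28, standard error 0.078, limma adjusted p = 6.57e-10), while its DMSO libraries at 894, 861 and 938 lay between the compounds. SGK1, a kinase downstream of PI3K and glucocorticoids, measured 3685, 3503 and 3200.4 in DMSO, 1652, 1759.5 and 1623 in VHL-r and 641, 856 and 855 in R4VPL3-1 (log2 difference -1.11, standard error 0.084, limma adjusted p = 2.32e-08). PHLDA1, a pleckstrin homology protein regulated by ERK, showed the same order with small spread, at 10972, 11316 and 11394 in DMSO, 5109, 5189 and 5214 in VHL-r and 3276, 3462 and 3673 in R4VPL3-1 (log2 difference -0.58, standard error 0.045, limma adjusted p = 3.41e-08). TRIB2 (-0.40, limma adjusted p = 1.19e-04), the polo-like kinase gene PLK2 (-0.35, limma adjusted p = 0.00139) and the adaptor gene SH2B3 (-0.29, limma adjusted p = 7.27e-04) were the remaining lower genes. RGS2 and RGS16, which speed up GTP hydrolysis by G proteins, were the 2 higher ones. RGS2 measured 557, 588 and 608 in VHL-r and 1059, 1017 and 984 in R4VPL3-1 (log2 difference 0.80, standard error 0.072, limma adjusted p = 3.32e-07), with VHL-r and DMSO overlapping. RGS16 measured 539, 536 and 697 in VHL-r and 865, 825 and 964 in R4VPL3-1 (log2 difference 0.59, standard error 0.092, limma adjusted p = 4.64e-04). TRIB3, an ATF4 target in the family of TRIB1, had a log2 difference of 0.0059 and was not called, and neither was ERRFI1 at -0.15.

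TGF-beta and BMP signals induce their own inhibitors. Of 17 tested genes, 4 were called lower and 0 higher, with a median of -0.18. TGIF1, a homeodomain corepressor of SMAD proteins, measured 786, 828 and 691 in VHL-r and 389, 423 and 418 in R4VPL3-1 (log2 difference -0.90, standard error 0.075, limma adjusted p = 1.06e-07), and VHL-r overlapped DMSO at 878, 903 and 823. SMAD7, the inhibitory SMAD, measured 403, 458 and 495 in VHL-r and 277, 297 and 336 in R4VPL3-1 (log2 difference -0.57, standard error 0.10, limma adjusted p = 0.00188). BAMBI, a pseudoreceptor that blocks TGF-beta receptors, measured 1002, 1104 and 1124 in VHL-r and 717, 778 and 826 in R4VPL3-1 (log2 difference -0.48, standard error 0.086, limma adjusted p = 0.00244). None of the 3 genes overlapped between the compounds; PMEPA1 (-0.24, limma adjusted p = 0.00891) lost its call without VHL-r replicate 2, VHL-r replicate 3 or R4VPL3-1 replicate 1. ID1, ID2 and ID3, direct BMP targets, had log2 differences of -0.18, -0.19 and -0.058 and were not called, and ID4 was at -0.78 (limma adjusted p = 0.224).

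In NF-kB feedback, 3 of 18 tested genes were called lower and 0 higher. NFKBIA, which encodes the inhibitor I kappa B alpha, measured 631, 681 and 741 in DMSO, 768, 762 and 816 in VHL-r and 550, 521 and 577 in R4VPL3-1 (log2 difference -0.51, standard error 0.073, limma adjusted p = 1.85e-04). BCL3, an atypical inhibitor of the same family, measured 275, 275 and 271 in VHL-r and 175, 221 and 170.2 in R4VPL3-1 (log2 difference -0.55, standard error 0.10, limma adjusted p = 0.0029). CXCL1, a neutrophil chemokine, was at 1965, 1953 and 1769 in DMSO, 477, 455 and 458 in VHL-r and 285, 306 and 366 in R4VPL3-1 (log2 difference -0.54, standard error 0.082, limma adjusted p = 3.44e-04). The larger step lay between DMSO and VHL-r, at -2.03. CXCL2, at -1.08, and TNFAIP3 (A20), at -0.27, were not called. Of 10 cytokine feedback genes, LIF and SOCS3 were called lower. LIF, a cytokine of the interleukin 6 family, measured 5051, 3526 and 2958 in DMSO, 1017, 1117 and 767 in VHL-r and 476, 638 and 525 in R4VPL3-1 (log2 difference -0.82, standard error 0.15, limma adjusted p = 0.00213). Its VHL-r and DMSO replicates spread widely, and limma's robust option removed the call (limma adjusted p = 0.281), while SOCS3 (-0.35, limma adjusted p = 0.0406) lost it under 6 of 21 alternatives.

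HES1, the repressor that Notch induces, was the largest change among 26 tested Notch and Wnt components, of which 3 were called lower and 0 higher. It measured 775, 624 and 782 in DMSO, 547, 487 and 579.7 in VHL-r and 175, 192 and 208 in R4VPL3-1 (log2 difference -1.49, standard error 0.099, limma adjusted p = 2.85e-09), and its 3 groups were separate. JAG1, a Notch ligand, measured 916, 948 and 897 in VHL-r and 668, 794 and 677 in R4VPL3-1 (log2 difference -0.37, standard error 0.073, limma adjusted p = 0.00512), a call that was lost without VHL-r replicate 2 (limma adjusted p = 0.0509). FZD1, a Wnt receptor, lost its call under 13 of 21 alternatives, and without VHL-r replicate 2 the list held 1 called gene. The Notch targets HEY1 and HES4, at -0.22 and -0.12, and the receptors NOTCH1 and NOTCH2, at 0.12 and 0.0074, were not called. YAP and TEAD targets gave 4 lower genes of 14 tested. CCN2 and CCN1, the matricellular proteins CTGF and CYR61, measured means of 5537 and 6572 in VHL-r and 3911 and 4743 in R4VPL3-1, with log2 differences of -0.51 and -0.47 (limma adjusted p = 8.75e-04 and limma adjusted p = 0.00154). Neither gene overlapped between the compounds, but both calls were lost with the robust option, under which the list held 1 called gene. It held 2 without VHL-r replicate 1, VHL-r replicate 2, R4VPL3-1 replicate 1 or R4VPL3-1 replicate 3, and ANKRD1, AXL and the TEAD genes were not called.

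Factors of mRNA decay also divided. ZFP36 (tristetraprolin), which binds AU-rich elements and promotes decay of cytokine and immediate early mRNAs, measured 625, 538 and 578 in DMSO, 1047, 1055 and 1209 in VHL-r and 2066, 1951 and 1572 in R4VPL3-1 (log2 difference 0.75, standard error 0.086, limma adjusted p = 1.14e-05). Its paralogs lay on the other side. ZFP36L2 measured 4230, 4204 and 4241 in VHL-r and 3488, 3519.9 and 3246 in R4VPL3-1 (log2 difference -0.31, standard error 0.057, limma adjusted p = 0.0028). ZFP36L1 differed by -0.31 (limma adjusted p = 0.0173), a call lost under 4 of 21 alternatives. TENT5B, a member of the noncanonical poly(A) polymerase family that extends tails, measured 304, 349.8 and 347 in VHL-r and 184, 222 and 209.8 in R4VPL3-1 (log2 difference -0.70, standard error 0.11, limma adjusted p = 3.44e-04). In all, 3 of 29 tested decay genes were called higher and 6 lower; the CCR4-NOT subunits CNOT1, CNOT2, CNOT3 and CNOT7, at 0.012, -0.005, 0.014 and -0.039, were not called.

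Brakes of the integrated stress response and of growth signalling formed the list with the largest share of called genes among the feedback lists, 8 higher and 0 lower of 13 tested, with a median of 0.52. DDIT4 (REDD1), an inhibitor of mTORC1, measured 2073, 2392 and 2318 in VHL-r and 18120.2, 16346 and 10017 in R4VPL3-1 (log2 difference 2.67, standard error 0.13, limma adjusted p = 1.15e-11). CHAC1, an ATF4 target that degrades glutathione, measured 146, 114 and 109.5 in DMSO, 205, 253 and 249 in VHL-r and 981, 789 and 550.3 in R4VPL3-1 (log2 difference 1.68, standard error 0.16, limma adjusted p = 5.74e-07). In both genes R4VPL3-1 replicate 1 was the highest and replicate 3 the lowest of its group, and all 3 were above every other library. ARRDC3, an arrestin of the family of TXNIP, was higher by 1.18 (limma adjusted p = 5.29e-06) and TXNIP itself, an inhibitor of glucose uptake and thioredoxin, by 0.58 (limma adjusted p = 6.70e-05). PPP1R15A (GADD34), the phosphatase subunit that reverses eIF2 alpha phosphorylation, measured 6314, 6603 and 6474 in VHL-r and 10566, 10121 and 8151 in R4VPL3-1 (log2 difference 0.56, standard error 0.077, limma adjusted p = 9.54e-05), a call lost with the robust option (limma adjusted p = 0.0509). SESN2, a sestrin that restrains mTORC1, measured 565, 604 and 632 in DMSO, 1467, 1504 and 1763 in VHL-r and 2454, 2209 and 2106 in R4VPL3-1 (log2 difference 0.52, standard error 0.072, limma adjusted p = 1.34e-04). The larger step was from DMSO to VHL-r. PPP1R15B, the constitutive counterpart of PPP1R15A, was at -0.19 and was not called.

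Of 2731 tested genes that the annotation does not class as protein coding, 33 were called higher and 6 lower, 1.21% and 0.220% of them, against 1.13% and 0.840% of 12499 protein-coding genes. Among long noncoding RNAs, 30 of 2316 were higher and 5 lower, with a median log2 difference of 0.052. The libraries were made from poly(A) RNA, so that the values below are of host transcripts and not of mature microRNAs or small nucleolar RNAs.

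MicroRNA host genes gave 3 higher and 1 lower of 37 tested. The main mature products of these 4 hosts are printed from RefSeq (GRCh38.p14) to show their seeds, the bases 2 to 8 that pair with target mRNAs, which are in capitals; other arms of the same hairpins are not printed. MIR17HG on chromosome 13 holds those from miR-17-5p to miR-92a-3p, MIR22HG on chromosome 17 holds miR-22-3p, MIR210HG on chromosome 11 holds miR-210-3p, and MIR222HG on chromosome X holds miR-221-3p and miR-222-3p.
miR-17-5p: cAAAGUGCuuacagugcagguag
miR-20a-5p: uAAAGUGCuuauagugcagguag
miR-18a-5p: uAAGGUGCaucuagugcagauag
miR-19a-3p: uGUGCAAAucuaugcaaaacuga
miR-19b-3p: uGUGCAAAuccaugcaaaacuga
miR-92a-3p: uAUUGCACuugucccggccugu
miR-22-3p: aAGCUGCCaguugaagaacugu
miR-210-3p: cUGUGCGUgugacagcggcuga
miR-221-3p: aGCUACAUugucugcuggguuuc
miR-222-3p: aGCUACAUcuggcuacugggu
The pairs miR-17-5p and miR-20a-5p, miR-19a-3p and miR-19b-3p, and miR-221-3p and miR-222-3p share their seeds. Among the sequences printed, the seed of MIR222HG is in none of the hosts called higher.

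MIR210HG (ENSG00000247095, chromosome 11, 565657 to 568457), the host of the hypoxia-responsive miR-210, measured 23, 10.5 and 25.6 in VHL-r and 105, 94.5 and 76 in R4VPL3-1 (log2 difference 2.24, standard error 0.28, limma adjusted p = 2.95e-05). Its VHL-r libraries spread around the DMSO libraries at 18.2, 18.7 and 20.3, and the R4VPL3-1 libraries were all well above. MIR17HG, the host of the growth-promoting miR-17 to miR-92a cluster, measured 489, 381 and 325 in VHL-r and 1061, 722 and 622 in R4VPL3-1 (log2 difference 0.99, standard error 0.15, limma adjusted p = 4.48e-04), a call lost with the robust option (limma adjusted p = 0.15). MIR22HG measured 604, 587 and 499 in VHL-r and 1093, 968 and 706 in R4VPL3-1 (log2 difference 0.69, standard error 0.11, limma adjusted p = 9.07e-04), and the groups did not overlap. MIR222HG (ENSG00000270069, chromosome X, 45745210 to 45770274), the host of miR-221 and miR-222, ran the other way, with 369.6, 466 and 351 in DMSO, 208, 242 and 139 in VHL-r and 96.2, 99.5 and 95.3 in R4VPL3-1 (log2 difference -0.97, standard error 0.16, limma adjusted p = 6.35e-04). Its VHL-r libraries were scattered, while the R4VPL3-1 libraries lay close together at the bottom. MIR31HG, MIR34AHG and MIR100HG, at 0.23, 0.18 and -0.14, were not called.

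NEAT1 (ENSG00000245532, chromosome 11, 65422774 to 65445540), the RNA scaffold of nuclear paraspeckles, measured 2274, 2722 and 3459 in DMSO, 1652, 1737 and 1446 in VHL-r and 5369.9, 3873 and 2954 in R4VPL3-1 (log2 difference 1.30, standard error 0.15, limma adjusted p = 9.59e-06). The VHL-r libraries were the lowest of the 9 and those of R4VPL3-1 overlapped DMSO, with log2 differences from DMSO of -0.79 for VHL-r and 0.51 for R4VPL3-1. Limma's robust option removed the call between the compounds (limma adjusted p = 0.0763). MALAT1, the speckle-associated neighbour of NEAT1, had a log2 difference of 0.53 and was not called, and NORAD was at 0.021.

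Small nucleolar RNA hosts are spliced transcripts whose introns carry the snoRNAs that guide rRNA modification and many of whose spliced exons are targets of nonsense-mediated decay. Of 20 tested, 5 were called higher and 0 lower, with a median of 0.15. SNHG1 measured 4063, 3842 and 3742 in VHL-r and 6131, 5464 and 4939.7 in R4VPL3-1 (log2 difference 0.50, standard error 0.062, limma adjusted p = 2.79e-05). GAS5, which accumulates in growth arrest, measured 5456, 5669.9 and 6039 in DMSO, 5773, 5513 and 5802 in VHL-r and 8322, 7458 and 6978 in R4VPL3-1 (log2 difference 0.41, standard error 0.055, limma adjusted p = 8.75e-05). VHL-r and DMSO overlapped. SNHG8 and SNHG7 were higher by 0.36 and 0.29 (limma adjusted p = 0.00516 and limma adjusted p = 0.00279), and EPB41L4A-AS1 by 0.26, a call lost under 11 of 21 alternatives. ZFAS1 and SNHG12, at 0.32 and 0.29, were not called.

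Antisense and divergent RNAs contributed few calls for their number, and intergenic (LINC) RNAs a share near that of all tested genes. There were 3 higher and 0 lower of 483 antisense, 2 higher and 1 lower of 233 divergent and 4 higher and 1 lower of 304 LINC genes. Both shares of the antisense and the divergent genes lay below those of all tested genes. Of the LINC genes, 1.64% were called in either direction, against 1.87% of all tested genes. PARD6G-AS1 (chromosome 18, 80147908 to 80179839), on the strand opposite PARD6G, measured 76.3, 84.6 and 87.2 in DMSO, 235, 187 and 217 in VHL-r and 665, 432 and 384 in R4VPL3-1 (log2 difference 1.17, standard error 0.15, limma adjusted p = 6.14e-05). LINC01004, opposite the gene KMT2E, measured 134, 122 and 101.4 in VHL-r and 228, 216 and 221 in R4VPL3-1 (log2 difference 0.90, standard error 0.14, limma adjusted p = 5.40e-04). LINC02575 (0.67, limma adjusted p = 2.12e-04) and LINC00355 (0.54, limma adjusted p = 4.17e-04) were higher too, and LINC02119 was lower, at 191, 195 and 174 in VHL-r and 122, 125 and 122 in R4VPL3-1 (log2 difference -0.60, standard error 0.11, limma adjusted p = 0.00355). PICART1, a p53-inducible RNA, measured 28, 25.2 and 22.5 in VHL-r and 10.3, 8.95 and 8.56 in R4VPL3-1 (log2 difference -1.35, standard error 0.28, limma adjusted p = 0.00903). It lost its call without VHL-r replicate 1 and when no filter was set. DPH6-DT (-1.25, limma adjusted p = 0.0215) lost its call under 6 of 21 alternatives, and the mitochondrial tRNA gene MT-TT (-1.38, limma adjusted p = 0.0363) under 7. GOLGA4-AS1 and EPB41L4A-AS1 each lost theirs under 11, so that 1 antisense gene was called without VHL-r replicate 2, R4VPL3-1 replicate 1 or R4VPL3-1 replicate 2.

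The 2 noncoding genes with the largest rises lie beside heat shock genes. ENSG00000285565, an unnamed long noncoding gene (chromosome 6, 31828834 to 31839719, plus strand), overlaps HSPA1B on the same strand and was read 403, 329 and 215 times in R4VPL3-1 against 1, 1 and 1 in VHL-r. The ratio of the normalized totals was 307, with a 95% interval of 105 to 1491 that covers counting error only. RN7SL472P, a 7SL pseudogene (chromosome 14, 102077180 to 102077472, minus strand), lies 3270 bases downstream of HSP90AA1 on its strand. It was read 65, 38 and 27 times in R4VPL3-1 against 3, 1 and 4 in VHL-r, a ratio of 15.8 (95% interval 7.79 to 37.4, counting error). HSPA1B, a near-identical copy of HSPA1A, so that how the reads divide between both is uncertain, differed by 4.02 and HSP90AA1 by 0.36 on the log2 scale (limma adjusted p = 8.37e-16 and limma adjusted p = 6.59e-05). Reads that run past the end of a gene and a transcript of the neighbour's own were not told apart here, and the part of either in these values was not tested. Within 10 kb, 28 of the 39 called noncoding genes had another tested gene and 11 a called one. ENSG00000291174 lies 9717 bases downstream of NEAT1 on the same strand, at means of 18.9 in VHL-r and 56 in R4VPL3-1 (1.46, limma adjusted p = 0.0242), a call lost under 6 of 21 alternatives. INSIG1-DT starts 235 bases from INSIG1 on the opposite strand, and both were called higher, by 0.83 and 1.12. MIR22HG overlaps WDR81 on the opposite strand, and this protein-coding neighbour was not called.

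The 111 genes called lower had smaller differences than the largest rises. Their log2 differences ran from -1.49 to -0.16 with a median of -0.37, and 8 fell by 2-fold or more and 38 by at least 0.5 on the log2 scale. In all 111, each R4VPL3-1 library lay below every VHL-r library, as in 7.11% of all tested genes. The reverse held for all 174 genes called higher and for 6.99% of all tested genes. Of the 111, 17 were in the transcription factor lists, 33 in the feedback lists, 3 in the noncoding lists and 10 in the lists of other lowered processes, and 48 were in no list. The 10 were spread over mitotic regulators (4 of 22 tested), 3′ end processing factors (3 of 19), Polycomb genes (2 of 20) and nucleolar processome factors (1 of 26). MAD2L1BP, a spindle checkpoint regulator, was called lower in every alternative (-0.35, limma adjusted p = 0.00267). The calls of FBXO5, HJURP and CCNF among the mitotic genes, of CSTF1, CSTF2T and CLP1 among the 3′ end factors and of CBX8 and UTP3 were lost under 4 or more of 21 alternatives. Without R4VPL3-1 replicate 1 the 4 lists held 1, 0, 0 and 0 called genes, and cyclins and kinases such as CCNB1, PLK1 and CDK1, at -0.092, -0.12 and -0.0043, were not called.

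Outside the lists, RASD2 and ENSG00000287448 were among the 15 largest falls, and the other genes named here were chosen after their values were seen. RASD2, a small GTPase, measured 36, 39.9 and 39.9 in VHL-r and 23.3, 22.9 and 16.1 in R4VPL3-1 (log2 difference -0.88, standard error 0.22, limma adjusted p = 0.0409), a call lost under 13 of 21 alternatives. An unnamed long noncoding gene, ENSG00000287448 (chromosome 16, 35499494 to 35522465), measured 78.1, 72.5 and 77.8 in VHL-r and 44.8, 33.8 and 40.7 in R4VPL3-1 (log2 difference -0.93, standard error 0.18, limma adjusted p = 0.00359). Among the genes chosen after seeing values, HOXA3, a homeobox gene, measured 525, 506 and 523 in VHL-r and 347, 281 and 316 in R4VPL3-1 (log2 difference -0.72, standard error 0.093, limma adjusted p = 5.00e-05). RIPK4, a kinase of epithelial differentiation, measured 333, 386 and 334 in VHL-r and 188, 237 and 219 in R4VPL3-1 (log2 difference -0.71, standard error 0.091, limma adjusted p = 4.74e-05). DGAT2, which makes triglycerides, measured 170.1, 199 and 195 in VHL-r and 97.1, 120.4 and 123 in R4VPL3-1 (log2 difference -0.73, standard error 0.13, limma adjusted p = 0.00268). All 3 were lower in each R4VPL3-1 library than in any VHL-r library. ENC1 (-0.60, limma adjusted p = 2.40e-06), TIPARP, an aryl hydrocarbon receptor target (-0.53, limma adjusted p = 1.99e-05), and IRF2BPL (-0.49, limma adjusted p = 3.22e-05) were further genes of this kind.

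The genes called in either direction had few exons. Among protein-coding genes, the canonical GENCODE transcript had 1 exon in 1.98% of those tested (247 genes), 12.1% of those called higher (17) and 15.2% of those called lower (16). With 1 or 2 exons, the shares were 6.48% (809), 19.1% (27) and 30.5% (32). The median exon number was 9 over all tested genes, 5 for genes called higher and 4 for genes called lower, and the median gene span was 36.5, 14.3 and 13.4 kb. Transcript length did not follow the span, with medians of 3466, 2517 and 3693 bases, and the median normalized count in DMSO was 881 over all tested genes, 851 for genes called higher and 2043 for genes called lower. Of the 17 single-exon genes called higher, 4 are mitochondrially encoded (MT-CYB, MT-ND4, MT-ND4L and MT-ATP8), 4 are histone genes and the others include JUN, JUND, IER5, HSPA1A, HSPA1B and RHOB, a short-lived small GTPase (1.25, limma adjusted p = 2.04e-08). The 16 called lower include the factors FOXC1, FOXC2, SOX4 and POU3F2 and the Wnt receptor FZD1, besides GSPT2, FAM43A and KBTBD6. These shares are a description of the called genes, without a test.

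Among the genes called higher outside the ferroptosis and NRF2 lists, 4 more lists were counted beside the factors above. Heat shock factor targets, chaperones and ubiquitin genes, gave 18 higher and 0 lower of 29 tested, and the hypoxia-inducible genes, MIR210HG among them, 11 higher and 0 lower of 23. The log2 differences of the heat shock list ran from -0.21 to 4.03 with a median of 0.33. HSPA1B, given above, was at 4.02, and the 2 members that follow are not the largest. Of the chaperone regulators, BAG3 measured 4148, 4345 and 4670.4 in VHL-r and 11077, 9029.7 and 7301 in R4VPL3-1 (log2 difference 1.04, standard error 0.09, limma adjusted p = 1.86e-07), and ZFAND2A, a proteasome-associated zinc-finger gene induced by arsenite, 480.3, 484 and 478 and 1700.3, 1301 and 914 (log2 difference 1.39, standard error 0.13, limma adjusted p = 7.07e-07). Of the hypoxia genes, ANKRD37 measured 226, 218 and 261 in VHL-r and 749, 692 and 532 in R4VPL3-1 (log2 difference 1.47, standard error 0.11, limma adjusted p = 2.97e-08), and ADM, the vasodilator adrenomedullin, 387, 325 and 449.6 and 791, 818 and 567 (log2 difference 0.90, standard error 0.12, limma adjusted p = 8.39e-05). The DMSO libraries of ANKRD37 lay below both compounds, at 163, 170 and 173. Those of ADM, at 596, 617 and 535, overlapped R4VPL3-1 and lay above VHL-r. The log2 difference of ADM from DMSO was -0.60 for VHL-r (limma adjusted p = 0.00102). For R4VPL3-1 it was 0.30 and was not called (limma adjusted p = 0.0776). Genes of cholesterol and fatty acid synthesis gave 10 higher and 0 lower of 28 tested. INSIG1, the sterol sensor that retains SREBP, measured 1297, 1437 and 1471 in VHL-r and 3442, 2987 and 2757 in R4VPL3-1 (log2 difference 1.12, standard error 0.07, limma adjusted p = 1.13e-09). The count of this list was 4 without R4VPL3-1 replicate 1 or VHL-r replicate 2 and 6 without R4VPL3-1 replicate 2. Of 15 tested replication-dependent histone genes, whose mRNAs normally end without poly(A), 4 were called higher and 0 lower, with H2BC11 at 25, 31.5 and 29.7 in VHL-r and 113, 82.6 and 52.5 in R4VPL3-1 (log2 difference 1.43, standard error 0.26, limma adjusted p = 0.00209).

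Promoters were searched for 5 motifs on both strands, in the RefSeq windows (GRCh38.p14) of 250 bases before to 50 after each start. A promoter was matched for 10071 of 12499 tested protein-coding genes and 117 of 141 called higher, but for 80 of 105 called lower, under 80%, so that the search is void for the lowered genes. A heat shock element, here 3 alternating GAA and TTC units with 2 bases between them, was found in 46 promoters of tested genes (0.457%) and in 5 of those called higher (4.27%), namely HSPD1, CHORDC1, HSP90AA1, DNAJA1 and HSPA8. The promoters of the heat shock factor list held it in 7 of 25. It was not found in those of HSPA1A, HSPA1B, BAG3 and ZFAND2A, which were called higher. The search misses elements with a changed base or other spacing and those outside the window, so no match does not mean no element. TGATGCAA, a composite C/EBP and ATF site, was found in 0.854% of the tested promoters and in 2 of the 117, CHAC1 and HERPUD1. TGACGTCA, the cyclic AMP response element, was found in 3.81% and in 5 of the 117 (SLC25A25, MAFF, PPP1R15A, JUND and DUSP1). TGACTCA, the AP-1 site, was found in 4.95% and in 8 of the 117 (6.84%), and TGACNNNGC, the core of the antioxidant response element, in 19.4% and in 31 of the 117 (26.5%). Over all 35116 RefSeq windows the shares were 0.490% for the heat shock element, 0.866% for TGATGCAA, 1.85% for TGACGTCA, 4.95% for TGACTCA and 13.3% for TGACNNNGC. The CHAC1 site lies on the strand opposite the gene, and a match describes letters in a window and not binding.

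The 250 bases before the start are printed for 5 of the genes called higher whose windows hold such a motif: GAS5 as the noncoding gene with a heat shock element, CHORDC1 and HSPA8 as chaperone genes with more than 1 match, CHAC1 for the C/EBP and ATF site and DUSP1 for the cyclic AMP response element. Sequences run 5′ to 3′ on the strand of the gene, and capitals mark the motif.
GAS5, chr1:173869046-173869295, minus strand, with 1 heat shock element 190 bases before the start: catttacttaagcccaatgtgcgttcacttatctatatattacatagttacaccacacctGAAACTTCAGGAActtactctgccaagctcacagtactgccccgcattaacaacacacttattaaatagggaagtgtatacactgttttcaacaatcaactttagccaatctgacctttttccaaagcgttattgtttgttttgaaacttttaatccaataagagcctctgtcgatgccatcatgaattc
CHORDC1, chr11:90223050-90223299, minus strand, with 3 overlapping heat shock elements from 60 to 50 bases before the start: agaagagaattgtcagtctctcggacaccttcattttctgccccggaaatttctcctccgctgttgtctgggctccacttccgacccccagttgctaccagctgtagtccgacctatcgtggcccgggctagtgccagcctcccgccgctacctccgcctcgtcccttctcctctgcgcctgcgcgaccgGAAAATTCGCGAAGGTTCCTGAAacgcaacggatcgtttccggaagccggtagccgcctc
HSPA8, chr11:123062137-123062386, minus strand, with 2 heat shock elements 230 and 55 bases before the start: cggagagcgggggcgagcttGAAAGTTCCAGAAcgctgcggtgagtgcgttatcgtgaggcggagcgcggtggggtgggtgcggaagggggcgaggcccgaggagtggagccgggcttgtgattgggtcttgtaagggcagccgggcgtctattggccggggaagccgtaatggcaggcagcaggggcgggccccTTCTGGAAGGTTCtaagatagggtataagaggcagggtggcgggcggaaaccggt
CHAC1, chr15:40953221-40953470, plus strand, with TGATGCAA on the opposite strand 209 bases before the start: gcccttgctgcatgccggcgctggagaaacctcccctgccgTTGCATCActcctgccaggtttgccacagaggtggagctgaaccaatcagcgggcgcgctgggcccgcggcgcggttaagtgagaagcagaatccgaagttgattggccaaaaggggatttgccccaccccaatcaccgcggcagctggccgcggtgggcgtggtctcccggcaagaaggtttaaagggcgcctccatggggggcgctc
DUSP1, chr5:172771196-172771445, minus strand, with TGACGTCA 125 bases before the start: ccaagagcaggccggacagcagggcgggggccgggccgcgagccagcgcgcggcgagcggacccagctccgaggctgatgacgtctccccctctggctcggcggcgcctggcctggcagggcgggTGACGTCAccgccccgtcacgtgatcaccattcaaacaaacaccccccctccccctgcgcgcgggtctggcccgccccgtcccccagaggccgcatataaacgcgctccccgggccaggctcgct
CHORDC1, a cochaperone of HSP90, measured 4807, 4506 and 4213 in VHL-r and 6132, 5459 and 5214 in R4VPL3-1 (log2 difference 0.31, standard error 0.059, limma adjusted p = 0.00322), and HSPA8, the constitutive HSP70, 99144, 98906 and 95724 and 161729, 156767 and 148481 (log2 difference 0.67, standard error 0.045, limma adjusted p = 3.80e-09); the values of GAS5, CHAC1 and DUSP1 are given above.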

How the data were processed

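RNA-seq libraries of A375R cells were grouped by their labels into R4VPL3-1, VHL-r and DMSO, with 3 libraries each. The authors deposited a normalized signal: STAR 2.5.3a aligned the 100-base reads to GRCh38 (Ensembl 109), and reads were counted in reverse-strand mode by htseq-count 2.0.2 and divided by DESeq2 1.36.0 size factors (0.9341 to 1.1012). htseq-count leaves out reads that fall on exons of more than 1 gene of the same strand. From the steps between low values, whole reads were recovered for 100% of the values within a tolerance of 0.0051; they summed to 26435568 to 32085626 per library, a depth at which counting error matters only for genes with low counts.

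Since the values are not counts, limma (3.58.1, R 4.3.3, trend option) was fitted on log2(value + 1) to all 9 libraries in a single-factor model, for the 15230 of 62710 genes with a mean of at least 10, and genes are called where the p adjusted by the Benjamini-Hochberg procedure is 0.05 or less. Alternatives were the count tests of edgeR 4.0.16 and of DESeq2 1.42.0 applied to recovered reads, pseudocounts of 0.1 and 5, no filter, a mean of at least 50, TMM and upper-quartile scaling, limma's robust option, only the 6 libraries compared, a replicate block, a stricter threshold of 0.01 and fits that left out each library. edgeR called 297 genes. A gene that an alternative did not test was not counted as losing its call there. For genes with low counts, the alternatives counted can therefore include some without a test.

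The gene lists, the members and the tests were chosen with earlier results of these data known, so the lists are described by counts and medians without a test. Named are called members of each list, mostly those with the largest differences, and members not called. Named too are genes from the 15 largest rises and falls and from the 10 largest noncoding rises and falls. These were taken among called genes whose groups do not overlap, and not every one of them is named. Other genes are said to be chosen after their values were seen. A gene that this rule names is not reported here. Exons came from GENCODE 44 (15221 of 15230 tested genes matched) and promoters and microRNAs from RefSeq (GRCh38.p14). Genes of the ferroptosis and NRF2 lists were left out as results.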

Additional observations from a re-analysis of the deposited data

How the results depend on the processing

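None of the 285 called genes changed direction in those of the 21 alternatives that tested them. Counting only alternatives that tested the gene, 159 were called in each and 169 in every fit that left out a library. On the same count, 269 were called by edgeR and DESeq2 too. Genes with low counts, such as PICART1, RASD2 and MT-TT, lie below the stricter filter on the mean and were not tested under it. Their stability is thus judged on fewer alternatives. Leaving out 1 library moved the count of called genes between 182 and 358, of higher genes between 113 and 232 and of lower genes between 68 and 126; the lowest values came without R4VPL3-1 replicate 1 (182 called, 113 higher, 69 lower) and without VHL-r replicate 2 (68 lower), and the highest without R4VPL3-1 replicate 3. At an adjusted p of at most 0.01, 71 genes were called lower and 196 in all. edgeR called 297 genes (194 higher, 103 lower) and DESeq2 322 (193 higher, 129 lower). Limma's robust option called 281, and 22 of the 285 lost their call under it; the cause was not tested. With a replicate block 389 genes were called, 228 higher and 161 lower, and all of the 285 were retained. The correlations of same-numbered libraries' deviations between the compounds were 0.12, 0.013 and 0.11. Those of differently numbered libraries ran from -0.15 to 0.0325. The main model did not pair the samples by replicate number, and whether libraries of the same number share a batch was not tested. TMM and upper-quartile scaling shifted the median of all genes by 0.0037 and 0.0096 on the log2 scale. Genes with under 100 normalized counts in both compounds, among them MIR210HG, PICART1, DPH6-DT, H2BC26, RASD2 and MT-TT, are the ones for which depth limits the precision most.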
